A study of Mus musculus with 22 samples.

Results

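The livers described here were taken 12 h after an injection of phosphate-buffered saline (PBS), the vehicle control of an interferon-gamma time course in mice. They comprise 2 of the 22 arrays, 1 per genotype. Membership rests on the sample labels alone. The comparison arrays were the 4 other controls, an uninjected liver and a liver taken 4 h after PBS in each genotype. Both genotypes lack the interferon-gamma gene (IFNg-/-), and the second also lacks the gene for suppressor of cytokine signalling 1 (SOCS1-/-IFNg-/-). The injected controls received 100 µl of PBS into the peritoneal cavity. The treated mice received 4 µg of recombinant interferon-gamma (IFNg) in 100 µl, and the 8 arrays of livers taken at 12, 16, 24 and 48 h served for comparison. The sources used here do not give the age, sex or strain background of the mice, nor the promoter of any deleting transgene, the hour of day at which livers were taken, any batch, or whether 1 array represents 1 mouse or a pool. Each condition has 1 array per genotype, so the p-values below measure only the spread between these arrays. A feature shared by both PBS 12 h livers for a reason other than the vehicle or the time cannot be told apart from them.

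Interferon-gamma binds a cell-surface receptor that signals through JAK kinases and activates genes with gamma-activated sites. Transcription factors of the interferon regulatory factor family, themselves induced, act on a further layer of genes through interferon-stimulated response elements. In liver the induced products include chemokines that draw T cells, GTPases that attack vacuoles holding pathogens, proteasome subunits that cut antigens for MHC class I display, and MHC class II components. SOCS1 binds JAK kinases and limits the signal. Type I interferons induce many of the same genes through a related receptor pathway.

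Levels are on the log2 scale, 1 probe set per gene, and each difference is a difference of log2 levels, followed by the standard error (SE) that limma fitted. The array medians lay between 5.64 and 5.71. Both targeted genes were read first. Socs1 was 6.79 (IFNg-/-) and 6.59 (SOCS1-/-IFNg-/-) at PBS 12 h, inside the range of the 4 other controls, which were 6.73 and 6.68 untreated and 6.80 and 6.57 at PBS 4 h. Ifng was 2.28 and 2.30, against 2.39 and 2.61 untreated and 2.52 and 2.37 at PBS 4 h, all close to the lowest value on any array, 1.73. Socs1 was thus lower in SOCS1-/-IFNg-/- in each control condition, without overlap, and Ifng overlapped between the genotypes. It was not examined whether the probes lie within the deleted parts. The 8 measured hepatocyte markers had a summed linear level of 34594 and 35566 at PBS 12 h, within the 33542 to 36016 of the other controls. Across all genes the IFNg-/- PBS 12 h array was nearest to the IFNg-/- array at 16 h of IFNg (Pearson r 0.995). Its r with the IFNg-/- array at 24 h of IFNg and with the other PBS 12 h array was also 0.995, so this order rests on small differences. The SOCS1-/-IFNg-/- PBS 12 h array was nearest to the other PBS 12 h array (0.9953), then to the PBS 4 h array of its genotype (0.9946). The median r of the PBS 12 h arrays with all others was 0.993 and 0.990. These are descriptions across genes, which are not independent.

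At PBS 12 h, interferon-inducible transcripts stood above the other controls in both genotypes. limma, with genotype as a covariate over the 6 control arrays, called 15 of 8251 genes at an adjusted p under 0.05, 14 of them higher (0.170% of all genes) and 1 lower (0.0121%). The genes that rose were Cxcl9, Gbp2, Psmb8, Psmb9, AW112010, Gbp3, Saa3, Gbp7, Cd74, Gm9706, Psmb10, Mpeg1, Isg15 and Rora, and Actb fell. An unadjusted p under 0.05 was found for 565 genes, beside 413 by chance. Over all genes the median shift was -0.02, and both PBS 12 h arrays lay above all 4 other controls for 535 genes (6.48%) and below all 4 for 746 (9.04%). With 2 arrays against 4, an exact permutation test of a single gene could not give a two-sided p under 0.0667. The count was 7 without the SOCS1-/-IFNg-/- PBS 12 h array, 5 with all 22 arrays in the fit and 90 with array weights. Against the PBS 4 h arrays alone 54 genes were called, and against the untreated arrays alone 179, and each of these lists held all 15. These fits reuse the PBS 12 h arrays and part of the controls that chose the 15, so the overlap is no separate support. Each rests on only 4 arrays, and the fit of all 22 arrays called 2 and 9 genes for the same comparisons.

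Cxcl9 rose most. It encodes a chemokine for T and NK cells bearing the receptor CXCR3. In IFNg-/- it was 4.16 untreated, 4.46 at PBS 4 h and 7.76 at PBS 12 h. In SOCS1-/-IFNg-/- it was 4.31, 4.33 and 8.31. The PBS 12 h arrays did not overlap the others, and the rise was 3.72 ± 0.13 SE (13.2-fold; adjusted p = 1.48e-05 by limma). Cxcl10, a second ligand of the same receptor and the only other measured, stood at 3.74 and 4.10 at PBS 12 h, against 3.68 and 3.78 untreated and 3.74 and 3.66 at PBS 4 h. Its shift of 0.20 ± 0.10 was not called (adjusted p = 0.787). Of 20 other chemokines 0 were called by limma and 0 lay above all 4 other controls (6.48% of all genes), and their median shift was -0.04. Thus 1 of the 2 CXCR3 ligands rose beside a background of 0.170%.

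All 4 measured guanylate-binding proteins, large GTPases that assemble on pathogen vacuoles, had both PBS 12 h arrays above the other controls, and 3 of them rose. Their median shift was 1.10, and both arrays lay above all 4 other controls for 6.48% of all genes. Gbp2 was 4.27 and 4.66 untreated (IFNg-/- first, as in all pairs that follow), 4.53 and 4.27 at PBS 4 h, and 6.44 and 7.60 at PBS 12 h. Its rise was 2.58 ± 0.23 (5.99-fold; adjusted p = 0.00366), and the array of SOCS1-/-IFNg-/- was the higher. Gbp3 was 5.33 and 5.91, then 5.76 and 5.67, then 6.56 and 7.07, a rise of 1.15 ± 0.14 (adjusted p = 0.0166). Gbp3 lost its call without the genotype term and in 4 of the 6 fits that left out an array, those without the IFNg-/- untreated or PBS 4 h array being the exceptions. Both lie in the same gene cluster as Gbp7, on chromosome 3. Gbp7 was 6.28 and 6.46, then 6.43 and 6.51, then 7.24 and 7.72, a rise of 1.06 ± 0.10 (adjusted p = 0.00577), not called without the SOCS1-/-IFNg-/- PBS 12 h array. Gbp2b stood at 4.42 and 5.44 at PBS 12 h against 3.94 to 4.23 in the other controls and did not pass (0.82 ± 0.16, adjusted p = 0.2). Gbp2 itself was not called with all 22 arrays in the fit (adjusted p = 0.302).

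**Figure D1:**
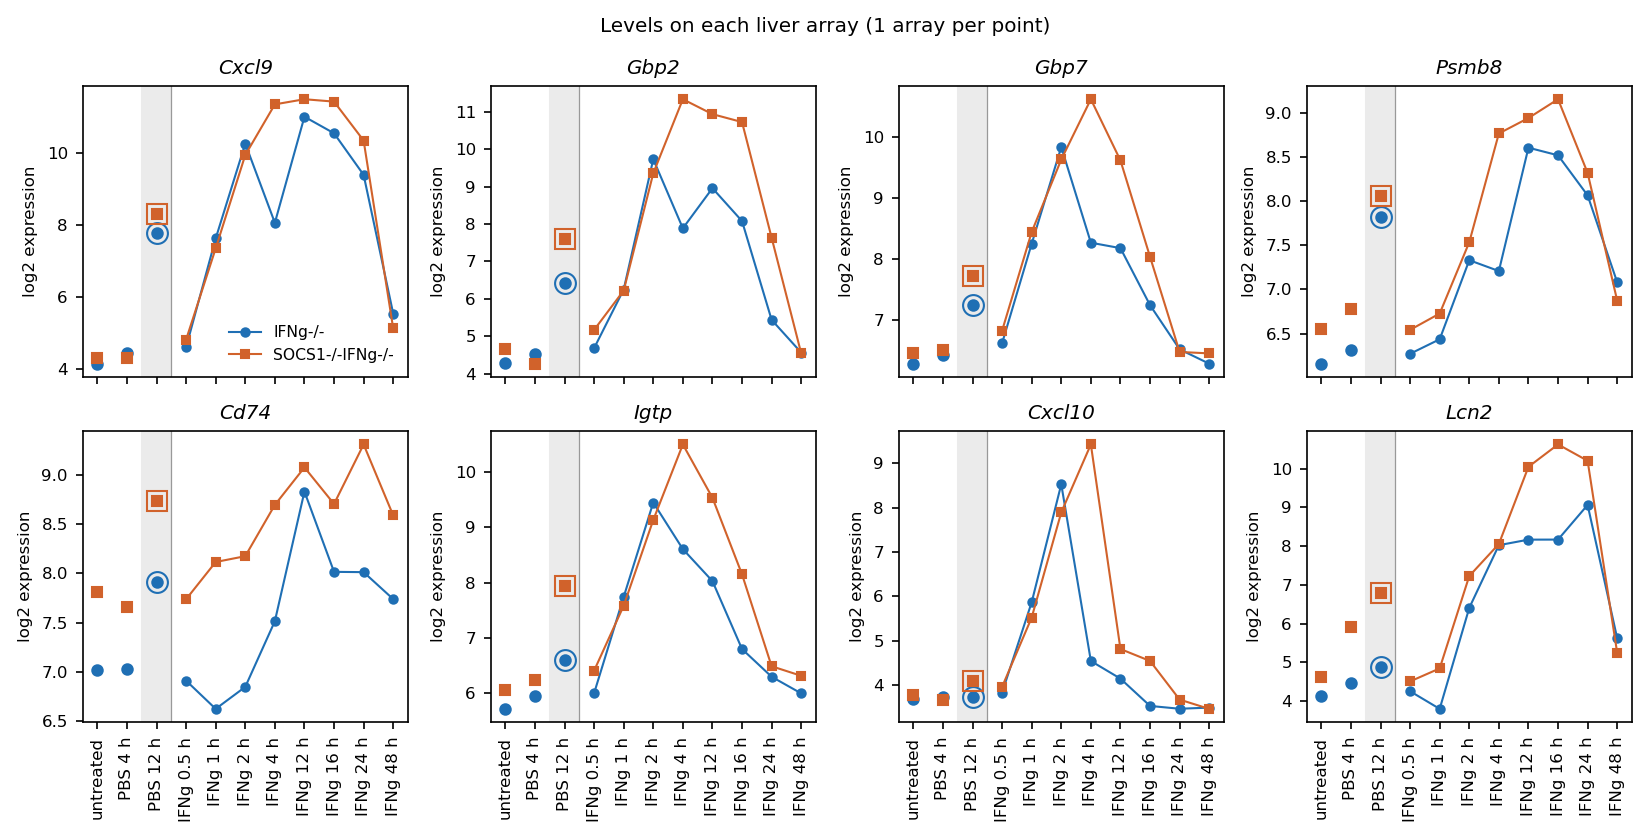
Log2 expression of 8 genes on each of the 22 arrays, by condition, with IFNg-/- as blue circles and SOCS1-/-IFNg-/- as orange squares; each point is 1 array, the PBS 12 h arrays are ringed and lines join the IFNg times. Cxcl9 reads 7.76 and 8.31 at PBS 12 h against at most 4.46 in the other controls, while Cxcl10 reads 3.74 and 4.10 there.

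The 5 measured immunity-related GTPases, a second family of vacuole-directed GTPases, were higher at PBS 12 h in both genotypes, but 0 of 5 were called by limma. Their median shift was 1.05, and 3 of 5 had both arrays above all other controls (6.48% of all genes). Igtp was 5.72 and 6.07 untreated, 5.95 and 6.24 at PBS 4 h, and 6.60 and 7.94 at PBS 12 h. Its shift was 1.28 ± 0.20 (adjusted p = 0.0886). Ifi47 stood at 6.75 and 7.46 against 5.92 to 6.23 (shift 1.05 ± 0.16, adjusted p = 0.0837), and Iigp1 at 11.09 and 11.71 against 10.01 to 10.75 (1.10 ± 0.23, adjusted p = 0.226). Irgm1, which regulates the other GTPases, and Irgm2 overlapped the other controls in IFNg-/-, at 5.98 and 7.58, with shifts of 0.65 and 0.53. Igtp and Ifi47 passed against either the PBS 4 h or the untreated arrays alone, though not against both together.

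Promoters are shown for 4 of the genes that rose, to describe the interferon-linked motifs they hold. Whether the genes that rose share a regulator was not tested. These 4 had the largest rises among motif-holding members of the guanylate-binding protein, immunity-related GTPase, CXCR3 ligand, immunoproteasome, antiviral, MHC and interferon regulatory factor lists. Risen genes outside these lists, such as AW112010 and Saa3, were not considered for display. The sequences were taken from the RefSeq promoter table of GRCm38.p6 and cover the 250 bases before the annotated start, on the strand of the gene. Capitals mark matches to the core of an interferon-stimulated response element (GAAA, any 2 bases, GAAA) or of a gamma-activated site (TTC, any 3 bases, GAA). Both strands were searched, so that the first can appear as TTTC, any 2 bases, TTTC. Neighbouring matches can overlap. The windows are chr3:142620413-142620662 for Gbp2, chr3:142559794-142560043 for Gbp3, chr3:142530086-142530335 for Gbp7 and chr17:34197945-34198194 for Psmb8, all on the plus strand.
Gbp2: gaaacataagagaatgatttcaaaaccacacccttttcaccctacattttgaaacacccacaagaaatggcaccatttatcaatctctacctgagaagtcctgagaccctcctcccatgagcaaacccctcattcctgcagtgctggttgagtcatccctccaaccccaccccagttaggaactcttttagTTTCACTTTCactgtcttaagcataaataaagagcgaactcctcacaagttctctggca
Gbp3: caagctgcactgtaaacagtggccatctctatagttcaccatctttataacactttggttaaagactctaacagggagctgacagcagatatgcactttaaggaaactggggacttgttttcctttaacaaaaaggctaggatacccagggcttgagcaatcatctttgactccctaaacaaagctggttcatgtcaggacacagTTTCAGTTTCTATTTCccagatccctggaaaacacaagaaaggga
Gbp7: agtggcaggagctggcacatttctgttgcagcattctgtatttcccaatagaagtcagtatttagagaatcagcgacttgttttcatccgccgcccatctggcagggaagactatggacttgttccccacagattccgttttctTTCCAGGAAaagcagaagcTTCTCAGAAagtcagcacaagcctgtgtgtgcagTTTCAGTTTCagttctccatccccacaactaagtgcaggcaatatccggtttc
Psmb8: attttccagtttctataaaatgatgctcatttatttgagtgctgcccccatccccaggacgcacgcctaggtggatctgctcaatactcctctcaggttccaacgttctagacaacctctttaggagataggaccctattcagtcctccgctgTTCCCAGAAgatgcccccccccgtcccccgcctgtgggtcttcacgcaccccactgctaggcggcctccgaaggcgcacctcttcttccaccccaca

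The Gbp2 window held 1 match to the response element, that of Gbp3 held 2 overlapping matches, and that of Gbp7 held 1, with 2 matches to the gamma-activated site farther upstream. Counted from the start, the response element began at position -59 in Gbp2 and at -53 in Gbp7. The Psmb8 window held 1 match to the gamma-activated site, at -97. Among the genes that rose, 12 had a promoter entry, and 5 of these (41.7%) held the response element, compared with 3.39% of the 6576 measured genes with an entry. Gbp2, Gbp3 and Gbp7, which lie in the same gene cluster, are among the 5. For the gamma-activated site the counts were 2 of 12 (16.7%) and 7.39%. The IFNg-induced sets defined below share genes with those that rose. There the response element was held by 17.6% of sustained and 19.4% of early genes with an entry. The gamma-activated site was held by 11.8% and 25.8%. The windows of Cxcl9, Psmb9 and Psmb10 held neither set of letters, and that of Isg15 held the response element 3 times. A match is a description of these letters and does not show binding.

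Subunits of the immunoproteasome, which replace the constitutive catalytic subunits and alter peptide cleavage, rose at PBS 12 h. Psmb8, Psmb9 and Psmb10 passed, 3 of 4 measured, and all 4 had both PBS 12 h arrays above the other controls (6.48% of all genes). The median shift was 1.02. Psmb8 was 6.16 and 6.56 untreated, 6.32 and 6.77 at PBS 4 h, and 7.82 and 8.07 at PBS 12 h, a rise of 1.49 ± 0.10 (2.81-fold; adjusted p = 7.68e-04). Psmb9 was 6.42 and 6.50, then 6.41 and 6.61, then 7.68 and 7.70, a rise of 1.20 ± 0.08 (adjusted p = 7.68e-04). The genotypes differed little in either gene at PBS 12 h. Psmb10 stood at 8.65 and 8.63 against 7.60 to 7.97 and rose by 0.84 ± 0.10 (adjusted p = 0.0153), a call lost without either PBS 12 h array and without the SOCS1-/-IFNg-/- PBS 4 h array. Psme1, a subunit of the activator that caps this proteasome, stood at 8.14 and 8.16 against 7.48 to 7.85 and did not pass (0.53 ± 0.10, adjusted p = 0.186).

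Of the antigen-presentation genes outside the proteasome, limma called Cd74 alone. Cd74, the invariant chain that escorts MHC class II molecules, was 7.01 and 7.82 untreated, 7.02 and 7.66 at PBS 4 h, and 7.91 and 8.73 at PBS 12 h. It rose by 0.94 ± 0.08 (adjusted p = 0.00366), and the SOCS1-/-IFNg-/- livers were higher in every control condition, so that the IFNg-/- PBS 12 h array (7.91) stood just above the untreated SOCS1-/-IFNg-/- array (7.82). The call was lost without the genotype term (adjusted p = 0.587), with all 22 arrays and without the SOCS1-/-IFNg-/- PBS 12 h array. Among the 13 class II genes Cd74 was the 1 that rose, and the median shift was 0.20. H2-Aa, an alpha chain, stood at 7.07 and 7.81 against 6.60 to 7.31, a shift of 0.50 ± 0.12 (adjusted p = 0.337), and Ciita, the regulator of the class, at 5.82 and 5.93 against 5.76 to 6.05. Of 14 class I genes limma called 0, with a median shift of 0.13, although 6 lay above all other controls (6.48% of all genes). The largest of these shifts was in Cd1d1, which presents lipid antigens (0.63, adjusted p = 0.0942).

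Antiviral genes common to both interferon types gave 1 call among 28. Isg15, a ubiquitin-like modifier, was 6.64 and 7.06 untreated, 6.84 and 7.03 at PBS 4 h, and 7.38 and 7.86 at PBS 12 h, a rise of 0.73 ± 0.09 (adjusted p = 0.0233) that was lost in 5 of the 6 fits without an array. In 11 of the 28 both PBS 12 h arrays were above all other controls, against 6.48% of all genes, and the list's median shift was 0.14. Ifit1, which binds viral RNA, stood at 5.57 and 6.26 against 4.96 to 5.22 (shift 0.80, adjusted p = 0.135). Samhd1, which depletes nucleotides, stood at 5.65 and 6.15 against 4.91 to 5.27 (0.80, adjusted p = 0.128), and Rsad2 at 6.85 and 7.41 against 6.13 to 6.73 (0.67, adjusted p = 0.404). Neither Ifit1, Samhd1 nor Rsad2 passed.

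Upstream components stood close to the other controls. Of the 13 measured genes of the interferon receptors and the JAK-STAT pathway limma called 0, with a median shift of -0.02. Of 8 interferon regulatory factors it also called 0. Irf1, a transcription factor that interferon-gamma induces early, was 6.92 and 7.57 at PBS 12 h, between the untreated (6.47 and 6.79) and the PBS 4 h arrays (7.14 and 7.38) in IFNg-/- and above both in SOCS1-/-IFNg-/-. Its shift of 0.30 ± 0.21 was not called (adjusted p = 0.847) and turned to -0.015 against the PBS 4 h arrays alone. Irf7, which amplifies type I interferon, stood at 6.96 and 7.10 against 6.57 to 6.87, a shift of 0.30 ± 0.08 (adjusted p = 0.495), and Irf8 at 5.68 and 5.72 against 5.42 to 5.73. Among 12 feedback inhibitors limma called 0, and their median shift was -0.02.

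The remaining genes that rose were of mixed kinds. AW112010, an interferon-inducible transcript, was 7.33 and 7.47 untreated, 7.39 and 7.73 at PBS 4 h, and 8.59 and 8.73 at PBS 12 h, a rise of 1.18 ± 0.09 (adjusted p = 0.00233). Gm9706, a predicted gene, stood at 4.38 and 4.74 against 3.58 to 3.93 (0.87 ± 0.10, adjusted p = 0.0153), a call lost without either PBS 12 h array and without the genotype term. Saa3, a serum amyloid made by inflamed tissue, stood at 7.20 and 6.99 against 5.82 to 6.17 (1.07 ± 0.12, adjusted p = 0.0153), and was the 1 acute phase gene of 31 that passed, where the list's median shift was 0.04. Saa3 was not called without either PBS 12 h array or without the SOCS1-/-IFNg-/- untreated array. Mpeg1, the pore-forming perforin-2 of macrophages, stood at 7.98 and 7.96 against 7.11 to 7.42 (0.77 ± 0.10, adjusted p = 0.0305), but its dimmer probe set read -0.11 and the call was lost in 5 of the 6 fits without an array. Cxcl9, Psmb8 and AW112010 kept their calls in all 15 alternatives, and Psmb9 in all but that with all 22 arrays. With all 22 arrays in the fit the other 12 of the 15 calls, Psmb9 included, were lost.

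Marker levels of the immune cells that could carry these transcripts are given beside them as summed linear levels. In bulk liver a smaller number of cells of a type and less RNA per cell cannot be told apart. The 13 Kupffer cell and macrophage markers summed to 2046 and 2150 at PBS 12 h against 1720 to 2121 in the other controls, and 1 of 13 was called, Mpeg1. Clec4f, a lectin of Kupffer cells, stood lower, at 7.84 and 7.79 against 8.02 to 8.39, and did not pass (-0.46 ± 0.11, adjusted p = 0.365). The markers of this list went both ways, with 6 higher and 5 lower in both genotypes and a median shift of -0.02. All other controls were exceeded by 2 markers (6.48% of all genes) and undercut by 2 (9.04%). The 14 T cell markers summed to 833 and 805 against 770 to 875, and the 9 NK cell markers to 230 and 235 against 223 to 253. The 13 monocyte and neutrophil markers summed to 448 and 468 against 453 to 513. For T, NK, and monocyte and neutrophil markers limma called 0 genes, and their median shifts were -0.03, -0.08 and -0.06. The part of any cell type in the rises was not tested.

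Few genes stood lower beyond the spread of the fit. Actb, cytoskeletal beta-actin, fell by 1.68 ± 0.24 (adjusted p = 0.0472). It was 8.35 and 8.44 untreated, 7.58 and 7.73 at PBS 4 h, and 6.38 and 6.30 at PBS 12 h. Its dimmer probe set also read lower, by -1.61. The array's brighter control probe sets for the Actb message read above all 4 other controls instead. That for the 3′ end stood at 12.91 and 12.85 against 12.56 to 12.79. That for the middle stood at 12.49 and 12.30 against 11.84 to 12.24, and that for the 5′ end at 12.22 and 12.16 against 11.24 to 12.13. The probe sets for Actb thus differed in direction, so a fall of the message itself is not established. The call of Actb was lost in 9 of 15 alternatives. On the late IFNg arrays the probe set used for Actb ranged from 6.02 to 8.46, so its low readings were not restricted to PBS 12 h. The difference between the 3′ and 5′ control probe sets of Actb, a measure of RNA integrity, was 0.69 and 0.69 at PBS 12 h, 0.83 and 0.66 at PBS 4 h and 1.32 and 1.31 untreated. Its part in the shifts was not tested.

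No other fall passed by limma. Among genes with both PBS 12 h arrays below all 4 other controls and an unadjusted p under 0.01, the 14 of largest fall after Actb are given here; genes outside that filter, such as Hspa1b (-1.37), had larger shifts. Among them were Herpud1, an endoplasmic reticulum protein of protein quality control (8.11 and 8.26 against 8.48 to 9.82, shift -0.97 ± 0.24, adjusted p = 0.385), and Sod1, the cytosolic superoxide dismutase (7.59 and 7.13 against 7.89 to 8.63, -0.92 ± 0.20, adjusted p = 0.251). Acaa1b, a peroxisomal thiolase, stood at 10.17 and 9.97 against 10.39 to 10.96 (-0.58 ± 0.09, adjusted p = 0.0959), and Slc27a2, a fatty acid transporter, at 9.58 and 9.36 against 9.88 to 10.11 (-0.48 ± 0.09, adjusted p = 0.177). Gabarapl1 and Map1lc3b, both autophagy proteins of the ATG8 family, had shifts of -0.54 and -0.46. The others were 1110032A03Rik, Epb41l4aos, Slc39a1, Fbxo21, Clec4f, Speg, Pdc and Nme1, from -0.55 for 1110032A03Rik to -0.40 for Nme1.

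Genes of cholesterol synthesis had a median shift above that of all genes without any passing, and a pair of haemoglobin genes stood higher. Of 17 cholesterol synthesis genes limma called 0, and 6 lay above all other controls (6.48% of all genes). The median shift was 0.50, with 0.79 in IFNg-/- and 0.10 in SOCS1-/-IFNg-/-. Hmgcs1, an early enzyme of the pathway, was 9.02 and 9.51 untreated, 8.11 and 9.63 at PBS 4 h, and 10.15 and 9.77 at PBS 12 h; its shift of 0.89 ± 0.32 had an adjusted p of 0.642. The haemoglobin genes Hbb-b2 (6.45 and 5.63 against 4.09 to 4.84, shift 1.46 ± 0.26, adjusted p = 0.141) and Hba-a1 (9.28 and 8.50 against 7.40 to 7.96, 1.14 ± 0.22, adjusted p = 0.177) were the larger in IFNg-/-. The 6 red cell markers summed to 1844 and 1485 against 1373 to 1479 in the other controls, so both PBS 12 h arrays were above them. That sum is linear and Hba-a1 was the 1 marker of the 6 above all other controls. The median shift of the 6 was -0.05, with -0.26 for Alas2, -0.14 for Klf1, -0.07 for Epor, -0.03 for Slc4a1 and 0.03 for Tfrc. The 8 endothelial markers summed to 842 and 809 against 865 to 958, so this linear sum lay below. By limma 0 of the 8 were called, and 1 lay below all other controls (9.04% of all genes). Their median shift was -0.07, with 3 higher and 4 lower in both genotypes.

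Clock and stress genes varied among the controls themselves. Rora, a nuclear receptor that activates clock genes, was 5.64 and 5.50 untreated, 5.68 and 5.54 at PBS 4 h, and 6.32 and 6.24 at PBS 12 h. It rose by 0.69 ± 0.08 (adjusted p = 0.0153), but its dimmer probe set read -0.09. The call was lost with the mean of its probe sets, without either PBS 12 h array and without the IFNg-/- untreated array. Among 18 clock genes Rora was the 1 called, and the median shift was -0.02. Nr1d1, a clock repressor, stood at 6.0 and 5.70 at PBS 12 h, near the untreated 5.68 and 6.48 and below the 7.58 and 7.57 of PBS 4 h. Arntl, an activator of the opposite phase, stood at 6.70 and 6.93 against 6.02 to 6.70 (0.38 ± 0.13, adjusted p = 0.628). Of 32 heat shock and endoplasmic reticulum stress genes limma called 0, with a median shift of -0.11. In this list 5 lay below all other controls, against 9.04% of all genes. Hspa1b, an inducible chaperone, was 8.16 and 6.26 untreated, 6.55 and 6.49 at PBS 4 h, and 5.35 and 5.64 at PBS 12 h (-1.37 ± 0.42, adjusted p = 0.549).

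**Figure D2:**
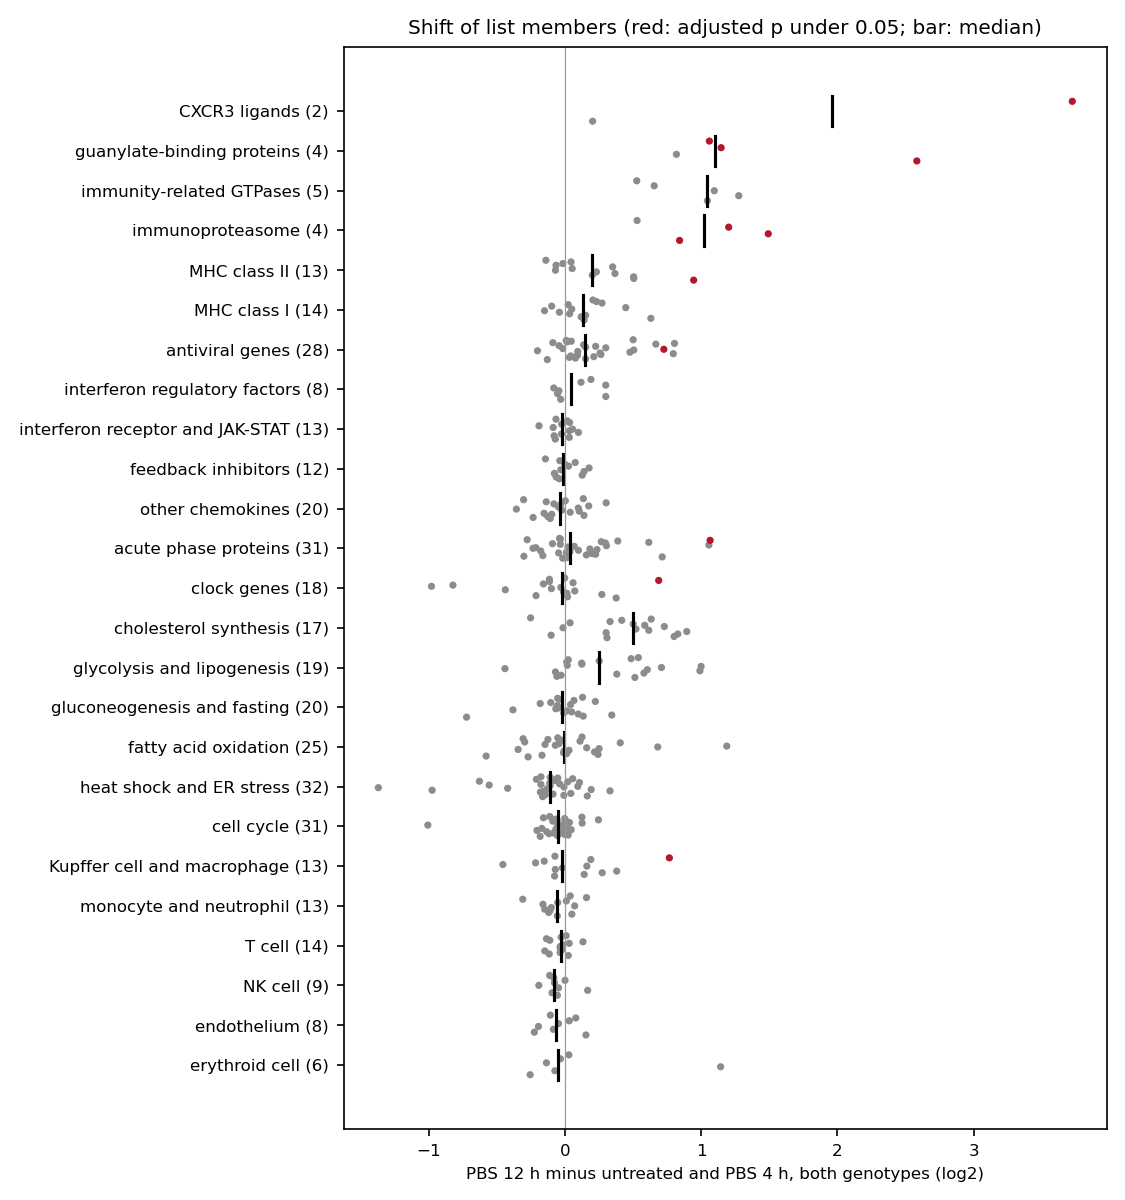
Shift at PBS 12 h (log2, PBS 12 h minus untreated and PBS 4 h, both genotypes) of the measured members of 25 gene lists, 1 point per gene, with the number measured in brackets; red points passed an adjusted p of 0.05 and bars are medians. The medians are 1.10 for guanylate-binding proteins, 1.05 for immunity-related GTPases and 1.02 for the immunoproteasome, against -0.02 for the receptor and JAK-STAT genes and for all genes.

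The shift was present in each genotype. In IFNg-/- Cxcl9 stood 3.46 and Psmb8 1.58 above the mean of that genotype's untreated and PBS 4 h arrays, and in SOCS1-/-IFNg-/- 3.99 and 1.40. All 4 guanylate-binding proteins and all 5 immunity-related GTPases had the larger shift in SOCS1-/-IFNg-/-, as did 50.1% of all genes. Gbp2 shifted by 2.03 and 3.13, a difference of 1.10 (unadjusted p = 0.00285). Igtp shifted by 0.76 and 1.79, a difference of 1.03 (unadjusted p = 0.00133). Psmb8 and Psmb9 differed by -0.18 and -0.12, with the smaller shift in SOCS1-/-IFNg-/-. The genotype difference passed for 0 genes by limma (smallest adjusted p 0.404; 114 genes had an unadjusted p under 0.05, beside 413 by chance), on 2 residual degrees of freedom.

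**Figure D3:**
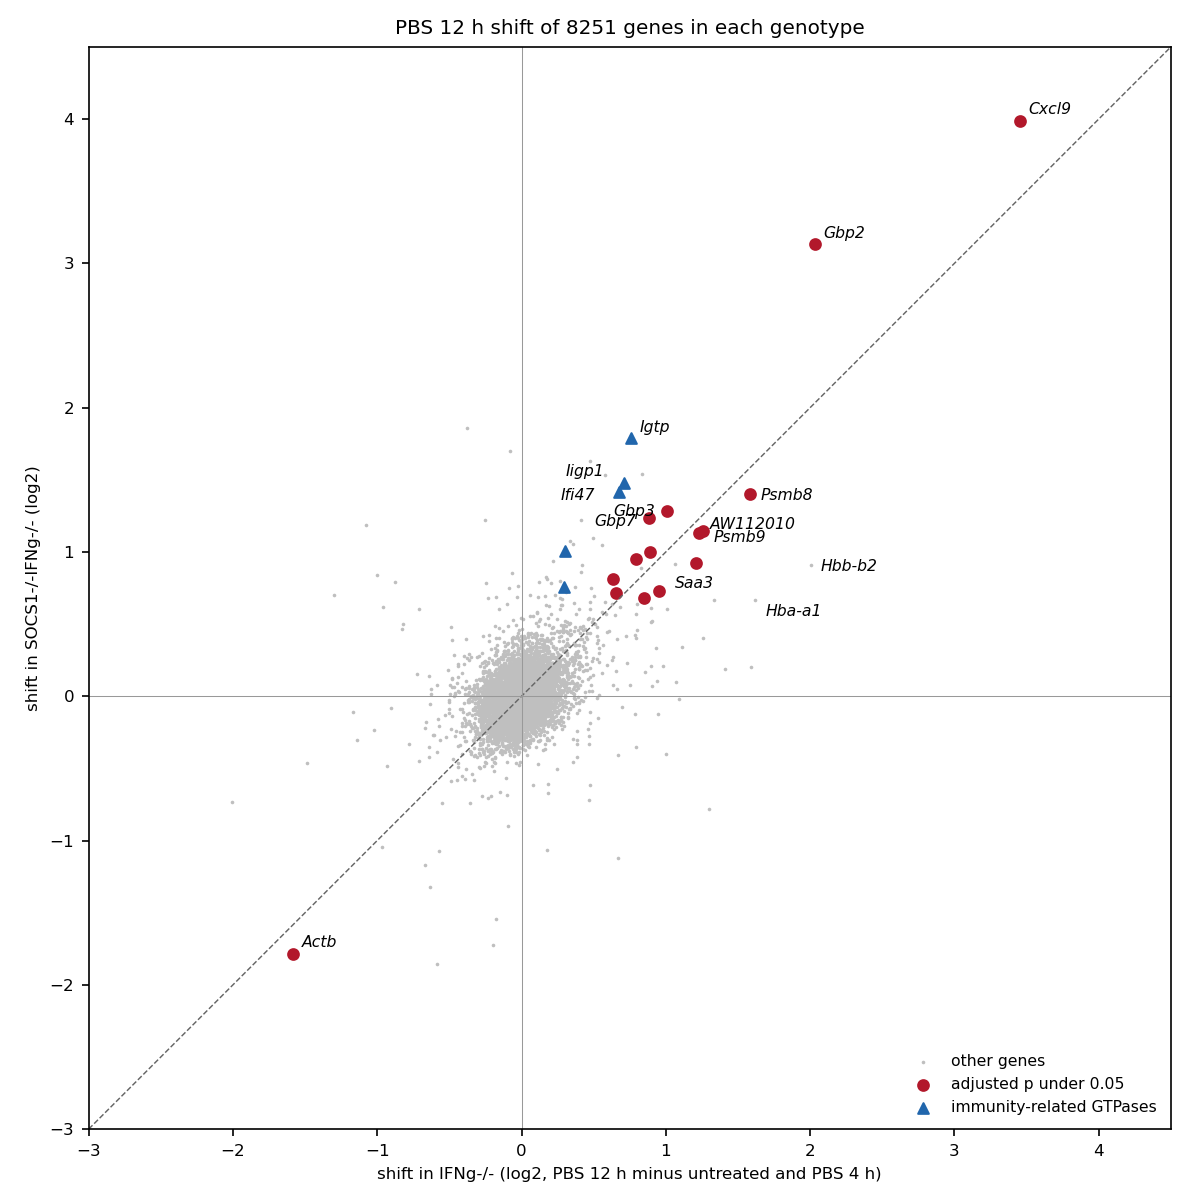
PBS 12 h shift (log2) in SOCS1-/-IFNg-/- against that in IFNg-/- for 8251 genes; red points passed an adjusted p of 0.05 in both genotypes together, blue triangles are the 5 immunity-related GTPases, and the dashed line marks equal shifts. Cxcl9 (3.46 and 3.99) and Gbp2 (2.03 and 3.13) lie farthest out, the GTPases lie above the line, and Actb is the 1 red point below 0.

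The PBS 12 h arrays were also set against each control pair in the fit of all 22 arrays. Cxcl9 stood 3.80 ± 0.60 above the untreated arrays (adjusted p = 0.0228), as did Psmb8 (1.59 ± 0.26) and AW112010 (1.26 ± 0.17). Against untreated livers limma called 9 genes, 8 higher (0.0970%) and 1 lower (0.0121%). The other genes higher were Id2, an inhibitor of helix-loop-helix factors (1.20 ± 0.18), the lysosomal protease Ctsc (1.02 ± 0.17), the secreted progranulin Grn (0.72 ± 0.12), Tmem37 (0.68 ± 0.12) and the antiviral membrane protein Ifitm3 (0.68 ± 0.11). The replication gene Mcm10 was lower, by -1.42 ± 0.19. Without either untreated array, or without the SOCS1-/-IFNg-/- PBS 12 h array, the count was between 0 and 2. Against PBS 4 h limma called 2 genes (0.0242%), AW112010 (1.10 ± 0.17, adjusted p = 0.0407) and Ly6e, an interferon-inducible surface protein (0.64 ± 0.10), and 1 or 0 when any of the 4 arrays was left out. PBS 4 h against untreated gave 2 calls (0.0242%), Id2 (1.25 ± 0.18) and Nab2, a corepressor of EGR factors (0.70 ± 0.11), so Id2 was high at both PBS times, at 9.61 and 9.78 and then at 9.48 and 9.80, against 8.23 and 8.66 untreated. That count was 1 or 0 when any of these 4 arrays was left out.

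To place the PBS 12 h profile within the response, induced genes were defined on the 16 IFNg arrays alone, which share no array with the controls. They passed limma's F test over the 1, 2, 4, 12 and 16 h coefficients against IFNg 0.5 h, the largest being at least 1. Of 62 such genes, 40 had their largest of these coefficients at 2 or 4 h (early) and 22 at 12 or 16 h (sustained). The 24 and 48 h coefficients were not candidates for the peak. Lcn2, classed as sustained, was in fact higher at 24 h (5.25 above IFNg 0.5 h) than at 16 h (5.02). At PBS 12 h, 10 of the 22 sustained genes rose and 15 lay above all other controls, compared with 0.170% and 6.48% of all genes. Of the 40 early genes 1 rose (Gbp7) and 7 lay above. The median shift was 0.74 for sustained genes, which were higher in both genotypes in 22 of 22 cases (25.4% of all genes), and 0.14 for early genes, higher in both in 16 of 40. The remaining 3 genes that rose, Gm9706, Isg15 and Rora, were outside the set. With a minimum coefficient of 0.5 the set held 127 genes.

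The mean level of the sustained genes was 6.92 and 7.13 untreated, 7.12 and 7.49 at PBS 4 h, and 7.92 and 8.32 at PBS 12 h. After IFNg the 12 h arrays had 9.15 and 9.83 and the 16 h arrays 8.76 and 9.79. The 24 h arrays had 8.44 and 8.90 and the 48 h arrays 7.53 and 7.51. In each genotype the PBS 12 h array therefore lay between those of 24 and 48 h. The early genes had means of 6.56 and 7.06 at PBS 12 h, against 6.74 and 7.0 at PBS 4 h and 6.39 and 6.47 untreated, and reached 7.90 and 8.89 at 4 h of IFNg.

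**Figure D4:**
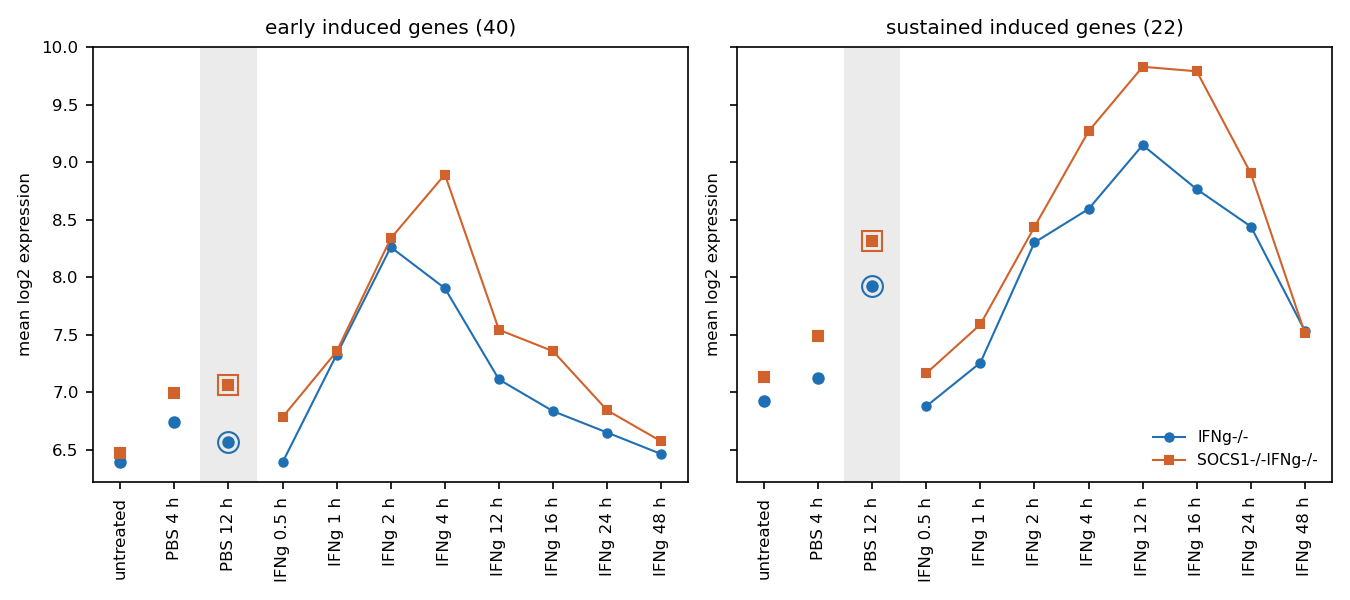
Mean log2 expression of the 40 early and the 22 sustained induced genes on each array, with IFNg-/- as blue circles, SOCS1-/-IFNg-/- as orange squares and the PBS 12 h arrays ringed. The sustained mean at PBS 12 h (7.92 and 8.32) lies above the other controls (6.92 to 7.49), whereas the early mean (6.56 and 7.06) lies near that of PBS 4 h (6.74 and 7.0).

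Gene by gene, the PBS 12 h shift had its highest correlation with the change at 12 h of IFNg. Across the 62 induced genes, Pearson's r between the PBS 12 h shift and the change from IFNg 0.5 h was highest at 12 h, where it was 0.79, and at 16 h, where it was 0.68. It was 0.50 at 24 h and 0.20 at 48 h. Before 12 h it was 0.35 (1 h), 0.44 (2 h) and 0.45 (4 h). These values compare genes, which are not independent, and carry no test. The 62 genes were chosen for their change at 1 to 16 h, and 24 and 48 h had no part in that choice. The r at 24 and 48 h is therefore not on an equal footing with those before. The 2 sides share no array. At 12 h Spearman's rho was 0.72, and r was 0.61 without the 5 genes of largest shift. Across the 8189 other genes r was 0.43 for 12 h, 0.31 for 16 h, 0.17 for 24 h and 0.24 for 48 h, so 12 h was also the highest of these 4 outside the induced set. For comparison, the difference between the PBS 4 h and untreated controls gave r of 0.31 at 12 h and 0.32 at 16 h over the same 8189 genes, so at 16 h the PBS 12 h shift was no closer than that control difference. Over the 62 induced genes the control difference gave 0.08 at 12 h and 0.22 at 16 h.

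**Figure D5:**
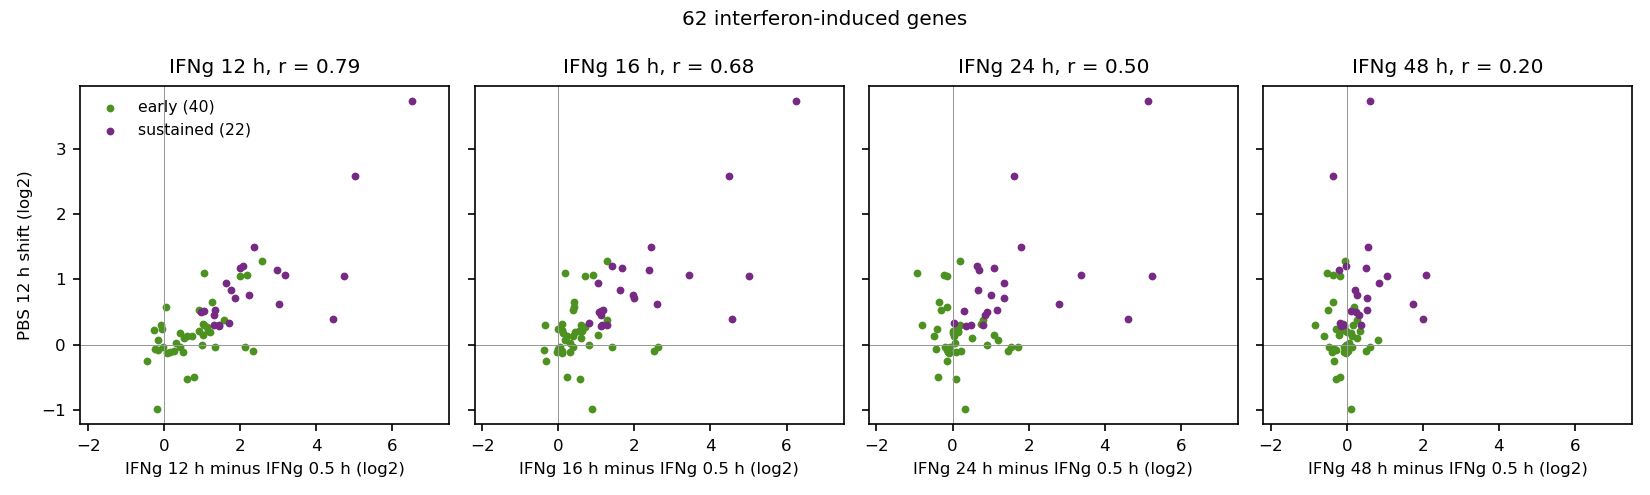
PBS 12 h shift (vertical, log2) of the 62 induced genes against their change from IFNg 0.5 h to IFNg 12, 16, 24 or 48 h (horizontal, log2), with early genes in green and sustained genes in purple; r is Pearson's across genes. The points spread along a line at 12 h (r = 0.79) and gather near 0 on the horizontal axis at 48 h (r = 0.20), with Cxcl9 the highest point in each panel.

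Compared directly with the PBS 12 h arrays, the genes that had risen there were mostly higher at 12 and 16 h of IFNg and lower at 48 h. Of the 14, 13 were higher in both genotypes for 12 h (26.6% of all genes), 11 for 16 h (28.5%), 5 for 24 h (36.5%) and 1 for 48 h (29.0%). At 48 h 13 were lower in both (23.2% of all genes). The 14 were chosen for their PBS 12 h levels, so nothing is read from these shares. Cxcl9 was 10.99 and 11.48 at 12 h, 10.53 and 11.41 at 16 h, 9.38 and 10.33 at 24 h, and 5.54 and 5.13 at 48 h, beside 7.76 and 8.31 at PBS 12 h. Gbp2 was 8.96 and 10.94, 8.08 and 10.73, 5.44 and 7.64, and 4.57 and 4.54 at these times, beside 6.44 and 7.60. Psmb9 was 8.03 and 8.92, 7.66 and 7.99, 6.88 and 7.23, and 6.31 and 6.48, beside 7.68 and 7.70, so it was above its 24 h level in both genotypes. Rora differed from the rest: at 6.32 and 6.24 it was higher at PBS 12 h than on all 8 late IFNg arrays, where it lay between 5.34 and 6.20. Cd74 lay between its 48 h and 12 h levels in both genotypes (7.91 and 8.73, against 7.74 and 8.59 at 48 h and 8.83 and 9.08 at 12 h).

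Few of these differences passed, in a fit where each time has 1 array per genotype and the spread is shared over all 22. Its residual spread is the genotype difference that varies from condition to condition. The SE of a gene therefore includes any effect of SOCS1 loss on its response, and a missing call is not evidence of equal levels. Above PBS 12 h limma called 9 genes for IFNg 12 h (0.109%), 3 for 16 h (0.0364%), 4 for 24 h (0.0485%) and 3 for 48 h (0.0364%). At each of these times 0 were lower (0.00%) by limma. Unadjusted p was under 0.05 for 583, 508, 757 and 559 genes in turn, in either direction. Acute phase genes made up 5 of the 9, 2 of the 3 and 4 of the 4 at 12, 16 and 24 h. Cxcl9, higher by 3.20 ± 0.60 at 12 h, did not pass (adjusted p = 0.0711), nor did its 48 h difference of -2.70 ± 0.60 (adjusted p = 0.132). Counts fell to 1 or 0 at all 4 times without the SOCS1-/-IFNg-/- PBS 12 h array or without the SOCS1-/-IFNg-/- array of the time in question. Leaving out the IFNg-/- PBS 12 h array gave 5 calls at 12 h and 1 at each later time, and leaving out the IFNg-/- array of the time gave 18, 36, 11 and 0.

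At 12, 16 and 24 h of IFNg, several acute phase genes were above the PBS 12 h livers beyond the spread of the fit, and at 48 h 0 of 31 were called by limma. Lcn2, an iron-binding lipocalin, was 4.13 and 4.62 untreated, 4.48 and 5.91 at PBS 4 h, 4.88 and 6.79 at PBS 12 h, and 8.17 and 10.05 at 12 h of IFNg. It was 3.27 ± 0.51 above PBS 12 h at 12 h (adjusted p = 0.0169), 3.56 ± 0.51 at 16 h and 3.79 ± 0.51 at 24 h, though its dimmer probe set stayed near 6 on the PBS 12 h arrays (5.86 and 6.04, against 5.83 to 6.03). At PBS 12 h its own shift of 1.06 ± 0.34 did not pass (adjusted p = 0.569). Serpina3n, a protease inhibitor, stood at 10.08 and 10.54 at PBS 12 h, within the 10.08 to 10.81 of the other controls, and was higher at 12 h of IFNg (11.34 and 11.95, 1.34 ± 0.20), 16 h (1.41 ± 0.20) and 24 h (1.53 ± 0.20). Saa2, a serum amyloid, stood at 8.58 and 9.18 at PBS 12 h against 7.62 to 10.06, and was higher by 2.91 ± 0.51 at 12 h and 3.10 ± 0.51 at 24 h. Haptoglobin (Hp) was higher by 0.55 ± 0.09 at 12 h and 0.68 ± 0.09 at 24 h, and Lbp, which binds endotoxin, by 0.94 ± 0.15 at 12 h. Against PBS 12 h, limma thus called 5 of 31 acute phase genes higher at 12 h of IFNg, where it called 0.109% of all genes higher. It called 0 of 4 guanylate-binding proteins, 0 of 5 immunity-related GTPases and 0 of 4 immunoproteasome genes. The median differences of these 3 lists were nevertheless 1.68, 1.00 and 0.75, against 0.37 for acute phase genes. In both genotypes 3 of 4, 5 of 5 and 4 of 4 were higher, beside 22 of 31 acute phase genes and 26.6% of all genes. Whether these lists differ was not tested. Genes whose response differs between the genotypes have a larger SE in this fit, so the calls do not rank the lists.

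The other genes called at 12 h were Ly6e (0.90 ± 0.10), Mpeg1 (1.35 ± 0.20), the protein disulphide isomerase Pdia3 (0.88 ± 0.14) and the collagen chaperone Serpinh1 (0.76 ± 0.12). Ly6e was also higher at 16 h (0.70 ± 0.10). At 48 h they were the organic anion transporter Abcc3 (0.99 ± 0.14), the mitochondrial dicarboxylate carrier Slc25a10 (0.64 ± 0.10) and the lectin Lgals1 (0.55 ± 0.09). These 3 read lower at PBS 12 h than on all 4 other controls, Abcc3 at 8.74 and 8.87 against 8.91 to 9.33, without passing there (adjusted p from 0.541 for Lgals1 to 0.745 for Abcc3). Cholesterol synthesis genes lay below PBS 12 h in both genotypes in 13 of 17 cases for 12 h (29.2% of all genes), 14 for 16 h (22.5%), 12 for 24 h (23.6%) and 11 for 48 h (23.2%), with 0 called by limma. These counts share the PBS 12 h arrays, where this list stood high. Against the untreated and PBS 4 h arrays its median difference was -0.22, -0.02, -0.02 and 0.23 at these times.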

How the data were processed

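Total RNA from liver was extracted with Trizol, cleaned on columns and hybridised as biotin-labelled cRNA to Affymetrix arrays, per the labels' protocols. The deposited values are log2 expression per probe set, made by the authors with affy per the submitters' processing notes; the sources used here name no background correction, normalization or build. Of 12488 probe sets 66 controls were left out, and 10833 had 1 symbol in the platform table, 396 several and 1193 none; those with several or none were named after no gene. The probe set with the highest mean over 22 arrays stood for each of 8251 genes. Promoters came from RefSeq (GRCm38.p6).

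limma 3.58.1 (R 4.3.3; lmFit, eBayes) was run on the log2 values with Benjamini-Hochberg adjustment over 8251 genes at 0.05: condition (PBS 12 h or other) plus genotype over 6 control arrays (3 residual degrees of freedom), their interaction (2), and condition plus genotype over 22 arrays (10). Fits were tested on simulated data. The small number of arrays limits precision. Named genes were Socs1 and Ifng, up to 15 in each direction by size (falls filled up at an unadjusted p under 0.01), all members of 5 interferon lists and up to 5 of the others or of each further comparison; Ciita was chosen after its values were seen. The comparison, the members and the 39 lists (551 of 733 genes measured) were chosen with earlier results of these data known. Alternatives changed the fit, controls, probe sets, filter, scaling and arrays. No array pair held identical values.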

Additional observations from a re-analysis of the deposited data

Results flagged for a closer look

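Mpeg1, the macrophage perforin-2, was 7.42 on the untreated SOCS1-/-IFNg-/- array, apart from the other 3 controls of PBS 12 h, which lay between 7.11 and 7.15. The gap to the nearest of them exceeded Dixon's critical value for 4 samples. Chance flags about 1 in 20 groups, and 17 sets of 4 values were examined.

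A probe set with 2 gene symbols in the platform table, and so named after no gene, read 6.06 and 7.28 at PBS 12 h, while the other controls read 4.26 to 4.47. Its shift was 2.30 ± 0.19 (adjusted p = 0.00314 by limma over 12422 probe sets), and it was the 1 unnamed probe set among the 16 called.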

How the results depend on the processing

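The count at PBS 12 h against other controls (15) was 5 with all 22 arrays in the fit, 54 and 179 against the PBS 4 h or the untreated arrays alone, and 90 with array weights; it ranged from 7 to 19 without 1 array. It stayed between 11 and 15 without the genotype term, with trend and robust fitting, the mean of probe sets, a filter at log2 5 and quantile normalization. The genotype difference passed for 0 genes in the 4 alternatives run. With array weights the counts for IFNg 12, 16, 24 and 48 h against PBS 12 h (9, 3, 4 and 3) were 19, 7, 14 and 32, and without both IFNg 4 h arrays 32, 8, 12 and 8. They ranged from 1 to 18, 0 to 36, 0 to 11 and 0 to 1 without 1 array. The mean of probe sets gave 1 at 16 h and 5 at 48 h, trend and robust fitting 1 at 24 h, and quantile normalization 1 at 48 h. PBS 12 h against PBS 4 h (2) gave 0 with trend and robust fitting or the mean of probe sets, 4 with array weights and 7 without both IFNg 4 h arrays (0 to 1 without 1 array). PBS 12 h against untreated (9) gave 198 and 16 with these last settings (0 to 12), and PBS 4 h against untreated (2) gave 1 without both IFNg 4 h arrays (0 to 1). The induced set (62) held 127 genes at a minimum of 0.5. Of 916 values of single genes under alternatives 683 kept direction and side of the threshold, 186 lost it, 46 gained it and 1 reversed, Irf1 (-0.015 against PBS 4 h alone). The causes were not tested. When an array of a pair is left out, the lone sample is assumed to vary like the rest. No paired analysis was possible because the labels carry no replicate numbers and each genotype and condition has 1 array.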
